A study of Mus musculus with 4 samples.

Results

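Spermatogonial stem cells (SSCs) are the germ cells of the testis that renew themselves and supply spermatogenesis, and 10 transcription factors best known from embryonic stem cells were followed here in cultured mouse SSCs: Pou5f1, Sox2, Nanog, Klf2, Klf4, Klf5, Esrrb, Tfcp2l1, Utf1 and Zfp42. They were taken by symbol from the deposited expression table, where each symbol matched a single row, and joined to the count table by gene identifier. They are 10 of the 37653 genes of that expression table and of 55335 in the count table. The study set wild-type (WT) SSCs against SSCs carrying the Tex11PM/Y genotype, from a project on correcting a mutation that arrests meiosis. Tex11 is an X-linked gene needed for crossovers, and the labels do not say what PM stands for. All cells came from testes of C57/BL6*DBA2 mice at postnatal day 10, were passaged in culture and were collected on a sorter, and each genotype had 2 libraries of poly(A) RNA. Separate cultures or animals are not stated for the replicates, so p-values measure the spread between these libraries, which may be technical. They name no feeder cells and no sort marker.

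In embryonic stem cells Pou5f1 (OCT4), Sox2 and Nanog form a core circuit that binds the regulatory sites of many shared genes, their own included. Klf2, Klf4, Klf5, Esrrb and Tfcp2l1 keep the naive state going downstream of LIF and other signals. Utf1 and Zfp42 (REX1) are chromatin-linked factors used as markers of embryonic stem cells. Germ cells of the early testis share part of this set, and cultured SSCs can on rare occasions turn into cells like embryonic stem cells. Pou5f1, Sox2 and Klf4 are also reprogramming factors.

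The libraries held between 19047148 and 19804951 counts. In the deposited counts, FPKM and TPM alike the Tex11PM/Y columns carry the same name. These libraries are thus called A and B by column order and are tied to no replicate number. Tex11 itself stood at 66.4 CPM (counts scaled to TMM library sizes) in WT replicate 1 and 126 CPM in replicate 2, against 22.7 CPM in library A and 9.32 CPM in library B. All 10 germ cell markers listed (Dazl, Ddx4 and Ret the most abundant) were above 3 counts in every library, with a summed level from 2541 to 3689 CPM. The 15 fibroblast markers, led by Col1a1, Col1a2 and Fn1, summed to 15690 CPM in WT replicate 1, 4703 CPM in replicate 2, 646 CPM in library A and 5823 CPM in library B. None of the 15 was at 0, and Lum alone was at 3 or fewer counts, in library A. The 12 macrophage markers, led by Lyz2 and with none at 0, summed to 747, 555, 26.9 and 1303 CPM in the same order. The sum of the 10 factors was 291, 372, 273 and 311 CPM. The fibroblast and macrophage sums differed more between libraries of a genotype than this sum did. Single factors could differ more than their sum. Between the WT replicates Sox2 differed 15.5-fold, Klf2 4.45-fold and Utf1 3.50-fold, while Klf5 and Zfp42 differed less than the sum. In bulk RNA, fewer cells of a type and less RNA per cell cannot be told apart.

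**Figure D1:**
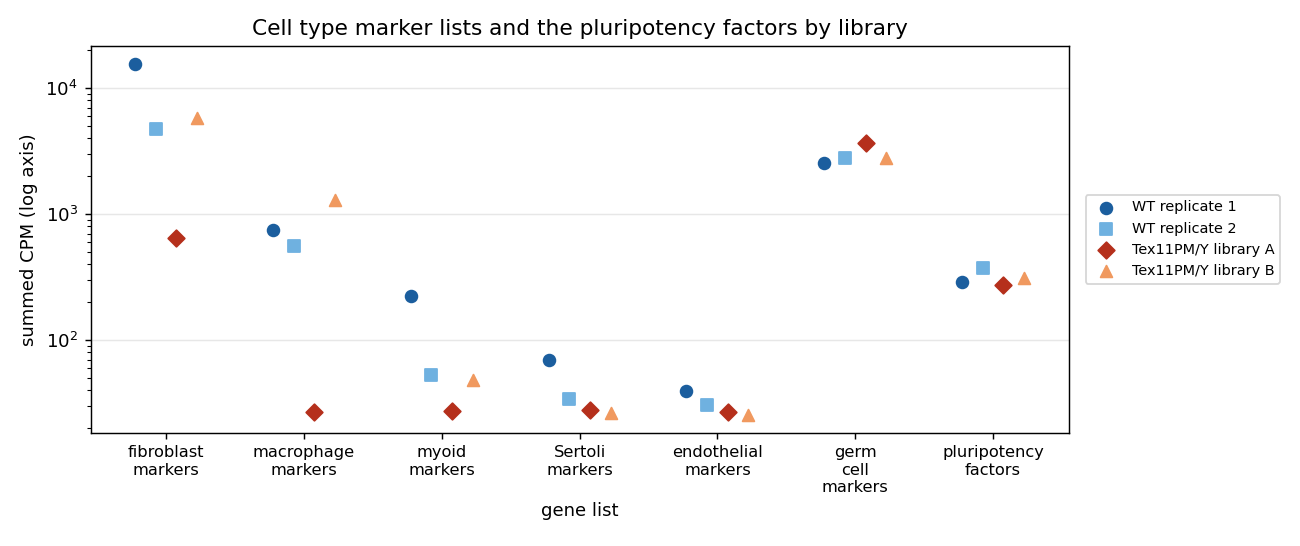
Summed CPM of each cell type marker list and of the 10 pluripotency factors (y, log axis) in the 4 libraries (points). Library A is lowest for fibroblast and macrophage markers, at 646 and 26.9 CPM, while the sum of the 10 factors stays between 273 and 372 CPM.

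By mean over the 4 libraries Pou5f1 and Klf4 stood well above the other factors and Nanog well below them, and no factor was at the detection limit of 3 or fewer counts in any library. Levels of different genes are compared here in deposited FPKM, which divide by transcript length. In WT replicate 1 Klf2, at 23.2 FPKM, came close to Pou5f1 at 27.5 and Klf4 at 28.8. Mean FPKM over the 4 libraries were 40.6 ± 14.5 for Pou5f1 and 34.3 ± 9.05 for Klf4 (SD, n = 4 libraries of both genotypes). Klf2 followed at 11.6 ± 7.87 and Zfp42 at 7.39 ± 1.52 FPKM. Then came Tfcp2l1 at 4.58 ± 1.64, Esrrb at 3.79 ± 0.98, Klf5 at 3.70 ± 0.18, Sox2 at 3.21 ± 2.87 and Utf1 at 2.11 ± 1.30 FPKM. Nanog had 0.146 ± 0.037 FPKM. Klf4 was above Klf2 in 4 of 4 libraries and Utf1 above Nanog in 4 of 4, with ranges that did not overlap in either pair. Zfp42 also exceeded Tfcp2l1 in 4 of 4 libraries, though their ranges overlapped. The other neighbours in this order overlapped: Pou5f1 exceeded Klf4 in 3 libraries, and Klf2 and Zfp42, Tfcp2l1 and Esrrb, Esrrb and Klf5, Klf5 and Sox2, and Sox2 and Utf1 kept their order in 2 or 3 of 4. Levels computed from counts and exon lengths put Klf4 (42.1 FPKM) before Pou5f1 (34.2 FPKM). They also put Sox2 (4.27 FPKM) before Klf5 (2.93 FPKM) and Esrrb (2.67 FPKM). The annotation of the count table has an antisense gene, Gm19553, over 21.4% of the exon bases of Pou5f1, and Gm19553 itself held at most 2 counts. It has no gene overlapping Klf4, Klf5 or Esrrb. The part of the bases shared with Gm19553 in the order of Pou5f1 and Klf4 was not tested.

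**Figure D2:**
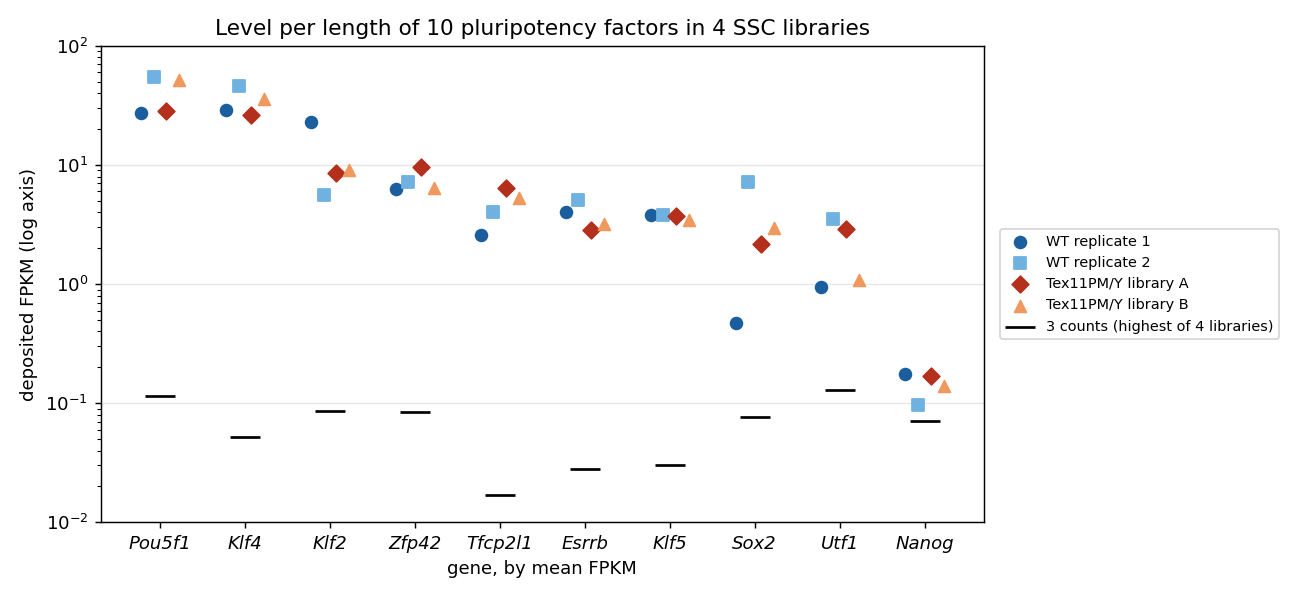
Deposited FPKM (y, log axis) of the 10 factors (x, ordered by mean) in each library (points); black dashes mark the level that 3 counts would give. Pou5f1 and Klf4 lie between 26.2 and 54.3 FPKM and Nanog between 0.0956 and 0.177 FPKM.

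The 250 bases before the start of 4 of these genes are shown because they carry short motifs of the OCT, SOX and GC-box classes and because the genes span the range of levels; they were picked after the matches were seen. The sequences are RefSeq's, build GRCm38.p6, with entries for 9 of the 10 genes; Klf5 is not shown. Capitals mark ATGCAAA (the core of the octamer that POU factors bind), ACAATG (a SOX core) and GGGCGG (a GC box, the class of site bound by SP and KLF proteins), searched on both strands. No matches overlap in these 4 windows.
Pou5f1: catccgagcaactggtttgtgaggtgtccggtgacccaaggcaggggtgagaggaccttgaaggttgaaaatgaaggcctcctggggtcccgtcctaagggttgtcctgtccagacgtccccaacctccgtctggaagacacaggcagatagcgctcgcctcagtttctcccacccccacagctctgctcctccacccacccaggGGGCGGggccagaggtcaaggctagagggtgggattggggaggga
Sox2: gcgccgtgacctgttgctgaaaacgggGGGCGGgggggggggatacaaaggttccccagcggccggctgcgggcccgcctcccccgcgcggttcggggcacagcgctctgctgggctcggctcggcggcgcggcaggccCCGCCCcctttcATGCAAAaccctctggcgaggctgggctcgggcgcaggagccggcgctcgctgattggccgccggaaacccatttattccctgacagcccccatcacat
Zfp42: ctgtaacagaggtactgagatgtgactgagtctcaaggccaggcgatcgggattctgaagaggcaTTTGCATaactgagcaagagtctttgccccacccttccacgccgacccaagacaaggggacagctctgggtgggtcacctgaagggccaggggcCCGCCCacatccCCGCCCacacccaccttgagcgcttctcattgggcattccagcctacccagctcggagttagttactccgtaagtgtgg
Nanog: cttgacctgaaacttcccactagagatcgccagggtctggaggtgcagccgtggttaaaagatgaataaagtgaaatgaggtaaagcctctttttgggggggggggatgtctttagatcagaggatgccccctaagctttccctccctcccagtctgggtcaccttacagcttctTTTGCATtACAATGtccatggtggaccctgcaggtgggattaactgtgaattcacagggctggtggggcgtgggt
They lie at chr17:35505782-35506031 (plus strand), chr3:34649745-34649994 (plus), chr8:43307010-43307259 (minus) and chr6:122707239-122707488 (plus). The Sox2 window ends at a RefSeq start 410 bases from the gene start in the count table, and the other 3 at starts 0 to 29 bases from it. ATGCAAA was found upstream of Nanog, Sox2 and Zfp42 and in 4.12% of all 32851 upstream windows of this length. In the Nanog window its reverse complement at -75 to -69 is followed by ACAATG at -67 to -62, positions counted from the start site. ACAATG was found in 10.7% of windows and, among the 9 genes, only before Nanog. GGGCGG was found in 32.7% of windows and before Pou5f1, Sox2, Klf2, Klf4, Utf1 and Zfp42, with 4 matches each before Klf4 and Utf1, 2 of which overlap by an end base in either gene. The windows hold 27 CpG before Sox2, 29 before Klf2 and 32 before Klf4, 16 before Tfcp2l1, 14 before Utf1, 9 before Zfp42, 8 before Pou5f1, 6 before Esrrb and 3 before Nanog, against a median of 6 over all windows. A match is a description of the letters and does not show binding.

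Pou5f1, the POU factor at the centre of the embryonic circuit, was read at a high level in every library. It lies on chromosome 17 from 35506018 to 35510772 on the plus strand (ENSMUSG00000024406.16, mm10, like all coordinates below). Its counts came to 637 in WT replicate 1, 1202 in replicate 2, 645 in library A and 1142 in library B. The matching FPKM of 27.5, 54.3, 28.6 and 51.9 were above those of 93.0%, 96.9%, 93.1% and 96.3% of genes in the table. WT replicate 2 and library B were thus high and WT replicate 1 and library A low, so that the genotypes overlapped. The mean was 48.3 ± 17.7 CPM for WT against 44.7 ± 17.3 CPM for Tex11PM/Y (SD over 2 libraries, as for all genotype means here), a log2 fold change of -0.11 with a standard error of 0.43 (edgeR adjusted p = 0.972). The libraries of a genotype differed by 0.76 log2 in WT and 0.81 in Tex11PM/Y.

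Sox2, the HMG-box partner of OCT4, varied most between libraries of the 9 factors that passed the count filter. It lies on chromosome 3 from 34650405 to 34652461 (ENSMUSG00000074637.7), inside the long noncoding gene Sox2ot, whose exons share no base with it. WT replicate 1 had 23 counts and WT replicate 2 had 397, while libraries A and B had 113 and 151. These are 1.29, 20.1, 5.69 and 7.52 CPM. Both Tex11PM/Y libraries thus lay between the WT libraries, which differed 15.5-fold. Its range of 3.85 log2 over the 4 libraries was wider than that of 97.1% of all genes tested and of 95.1% of 3329 genes within 2-fold of its mean level. The mean was 10.7 ± 13.3 CPM for WT against 6.61 ± 1.30 CPM for Tex11PM/Y (log2 fold change -0.69, SE 1.08, edgeR adjusted p = 0.924). Without WT replicate 2 the log2 fold change was 2.33, and without WT replicate 1 it was -1.62. On the log2(FPKM + 0.1) scale, where each library weighs alike, it was 0.38. Sox2ot held 2, 16, 2 and 7 counts, so it too was highest in WT replicate 2.

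Nanog, the homeobox factor that locks in the embryonic state, was close to the limit. It lies on chromosome 6 from 122707489 to 122714633 (ENSMUSG00000012396.12) and had 9 and 5 counts in WT and 9 and 7 counts in Tex11PM/Y. These are 0.506, 0.253, 0.453 and 0.349 CPM, where 3 counts correspond to between 0.149 and 0.169 CPM. The genotypes overlapped, and with so few counts a difference between them was not detectable at this depth. Nanog was the only factor that did not pass the count filter of the test. Its longest transcript in GENCODE M21 shares stretches of at least 100 bases, at 90% identity or more, with transcripts of 459 other genes, which makes the source of a few reads uncertain. The copies Nanog-ps1 and Nanog-ps2 held 0 counts in every library. The octamer and SOX cores printed above lie before the factor with the lowest level here. In these libraries Pou5f1 stood above at least 93.0% of genes by FPKM, and Sox2 lay between 0.470 and 7.22 FPKM. Any part of Pou5f1, Sox2 or these motifs in the Nanog level was not tested.

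The 3 Krüppel-like factors, zinc-finger proteins that bind GC-rich sites and can stand in for each other in embryonic stem cells, showed 3 different patterns. Klf4, on chromosome 4 from 55527143 to 55532466 on the minus strand (ENSMUSG00000003032.8), had the most counts of the 10 factors, with 2056 and 3384 in WT and 1896 and 2556 in Tex11PM/Y. The genotypes overlapped, with WT replicate 2 highest and library A lowest. The mean was 143 ± 39.3 CPM for WT against 111 ± 22.5 CPM for Tex11PM/Y (log2 fold change -0.36, SE 0.33, edgeR adjusted p = 0.884). Over the 4 libraries Klf4 differed from Pou5f1 by a root-mean-square of 0.194 log2 after centring, the closest pair among the 9 factors.

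Klf2, on chromosome 8 from 72319033 to 72321656 (ENSMUSG00000055148.7), had 1029 counts in WT replicate 1, 257 in WT replicate 2, then 396 in library A and 405 in library B. These are 57.8, 13.0, 19.9 and 20.2 CPM, so that WT replicate 1 alone was high and both Tex11PM/Y libraries lay between the WT libraries. The log2 fold change was -0.82 (standard error 0.66, edgeR adjusted p = 0.884), and 0.61 without WT replicate 1. In WT replicate 1 the 921 tested genes of chromosome 8 stood a median of 0.40 log2 above the mean of the remaining libraries, and Klf2 stood 1.73 log2 above it. The summed CPM of the fibroblast, myoid, Sertoli and endothelial lists was also highest in WT replicate 1. Klf2 is well known from endothelium. The 9 endothelial markers summed to 39.7, 30.5, 26.8 and 25.5 CPM in WT replicates 1 and 2, then libraries A and B. Of these, Eng (18.2, 8.3, 4.8 and 5.1 CPM in the same order), Kdr and Emcn were highest in WT replicate 1. The remaining endothelial markers were highest in other libraries, and Tek and Cdh5 were lowest in WT replicate 1. Emcn was at 0 in WT replicate 2 and library A, and Emcn and Cldn5 had 3 or fewer counts in library B. The 11 Sertoli markers summed to 69.2, 33.99, 27.7 and 26.6 CPM in the same order. Of these, Inhbb, Clu, Inha and Amh were highest in WT replicate 1. Sox9, Gata4, Wt1, Aard, Dhh and Rhox5 were highest in other libraries, and all of these except Gata4 were lowest in WT replicate 1. Fshr was at 0 in every library, and Dhh and Rhox5 had 3 or fewer counts in WT replicate 1. The 8 myoid markers, none at 0, summed to 224, 52.9, 27.5 and 48.4 CPM. Of these, Acta2 alone held 178, 24.3, 2.72 and 22.1 CPM in the same order. Mylk and Myh11 were lowest in WT replicate 1, and the remaining myoid markers were highest there. Klf2 was alike in libraries A and B, where the fibroblast sum was 646 and 5823 CPM. The part of chromosome 8 or of these markers in the Klf2 values was not tested.

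Klf5, on chromosome 14 from 99298691 to 99315036 (ENSMUSG00000005148.8), hardly varied, with 302 and 308 counts in WT, 293 in library A and 279 in library B. Only 5.21% of genes tested had a range smaller than its 0.29 log2, and of 3788 genes within 2-fold of its mean level only 4.46% had a smaller one. The CPM of the genotypes did not overlap, at 16.97 and 15.6 in WT and 14.8 and 13.9 in Tex11PM/Y, but the difference was small (log2 fold change -0.18, SE 0.42, edgeR adjusted p = 0.951). On the log2(TPM + 1) scale it was 0.020. The pseudogene Gm6007, 90.02% identical to Klf5 over 822 bases, held 0 counts in every library.

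Klf5, Esrrb and Tfcp2l1 were the 3 of 9 tested factors whose genotypes did not overlap, Klf5 and Esrrb being lower and Tfcp2l1 higher in Tex11PM/Y. Of all genes tested 32.4% did not overlap, 16.1% being higher and 16.3% lower in Tex11PM/Y. Esrrb, an orphan nuclear receptor that can take the place of Nanog in self-renewal, lies on chromosome 12 from 86361117 to 86521628 (ENSMUSG00000021255.17). It had 267 and 469 counts in WT and 165 and 264 counts in Tex11PM/Y, or 15.0, 23.7, 8.31 and 13.1 CPM. The lower WT library exceeded the higher Tex11PM/Y library by little, and within each genotype the libraries differed by 0.66 log2. The mean was 19.4 ± 6.16 CPM for WT against 10.7 ± 3.43 CPM for Tex11PM/Y, and the log2 fold change of -0.85 (standard error 0.49) did not pass the threshold (edgeR adjusted p = 0.884). In WT replicate 2 the 632 tested genes of chromosome 12 stood a median of 0.57 log2 above the mean of the remaining libraries, and Esrrb stood 1.00 log2 above it. The median log2 fold change of these 632 genes was -0.28, and the part of this in the Esrrb values was not tested. Without WT replicate 2 that of Esrrb was -0.50.

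Tfcp2l1, a CP2-family factor that acts downstream of LIF and STAT3, was the factor fitted highest in Tex11PM/Y. It lies on chromosome 1 from 118627946 to 118685168 (ENSMUSG00000026380.10) and had 555 and 867 counts in WT and 1376 and 1112 counts in Tex11PM/Y. In CPM these are 31.2 and 43.8 against 69.3 and 55.4, with library A highest and WT replicate 1 lowest. The mean was 37.5 ± 8.96 CPM for WT against 62.3 ± 9.82 CPM for Tex11PM/Y (log2 fold change 0.73, SE 0.35, edgeR adjusted p = 0.884). The unadjusted p of 0.0749 was the smallest of the 9. By the measure used above for Nanog, its longest transcript shares stretches with those of 41 other genes. The log2 fold change stayed positive with each library left out, from 0.49 to 0.98. Fibroblast markers were in turn highest in WT replicate 1 and lowest in library A; their part in this difference was not tested.

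Utf1 and Zfp42, both linked to chromatin in embryonic cells, were higher in WT replicate 2 and library A than in the other library of the genotype. Utf1, which in the testis marks undifferentiated spermatogonia, lies on chromosome 7 from 139943789 to 139945112 (ENSMUSG00000047751.9). It had 26 and 101 counts in WT and 77 and 31 counts in Tex11PM/Y. Each genotype thus had a high and a low library, 1.74 log2 apart in WT and 1.27 log2 apart in Tex11PM/Y. The mean was 3.28 ± 2.58 CPM for WT against 2.71 ± 1.65 CPM for Tex11PM/Y (log2 fold change -0.28, SE 0.84, edgeR adjusted p = 0.964). Zfp42, a zinc-finger relative of YY1, lies on chromosome 8 from 43295063 to 43306980 on the minus strand (ENSMUSG00000051176.6). Its counts were 282 and 359 in WT and 445 and 291 in Tex11PM/Y, and the genotypes overlapped. The mean was 17.0 ± 1.64 CPM for WT against 18.5 ± 5.59 CPM for Tex11PM/Y (log2 fold change 0.12, SE 0.44, edgeR adjusted p = 0.972). Unlike Klf2, Zfp42 was not raised in WT replicate 1, where its difference from the mean of the other libraries was -0.19 log2. The copy Zfp42-ps1 held 0 counts in every library.

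**Figure D3:**
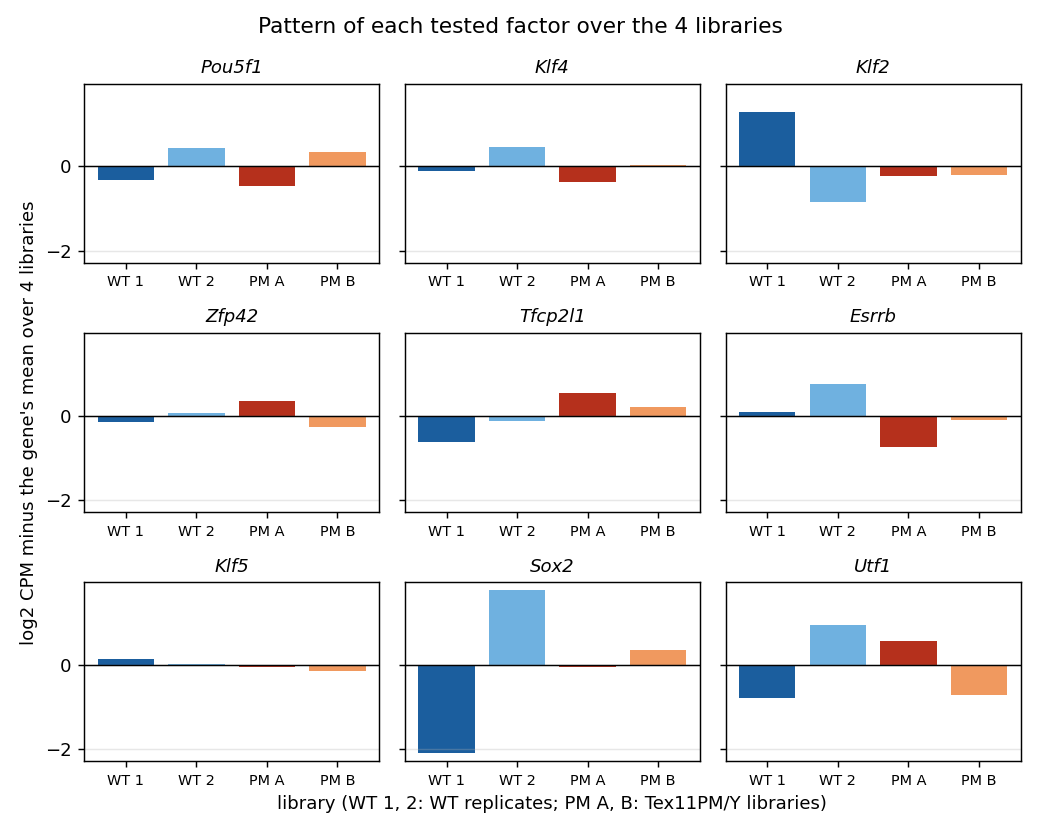
Log2 CPM of each of the 9 tested factors minus its own mean (y), by library (bars; WT 1 and 2 are the WT replicates, PM A and B the Tex11PM/Y libraries). Sox2 runs from -2.09 to 1.77, while Klf5 stays between -0.13 and 0.15.

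No factor passed the test between the genotypes. Of the 9 tested with edgeR's quasi-likelihood test, 0 passed an adjusted p of 0.05 over all 17262 genes tested, and 0 reached an unadjusted p of 0.05. Over all genes 0% passed the adjusted and 2.7% (466 genes) the unadjusted threshold, so the 0 among the factors is the background's own share. Fitted values were higher in Tex11PM/Y for 2 factors and lower for 7, with a median log2 fold change of -0.28, against 0.014 over all genes tested. The 3 of 9 factors without overlap are 33.3%, near the 32.4% of all genes. For 6 of 9 the libraries of a genotype differed by more than the means of the genotypes did, against 82.6% of all genes. An exact permutation test of 2 libraries against 2 cannot give a two-sided p under 0.333.

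**Figure D4:**
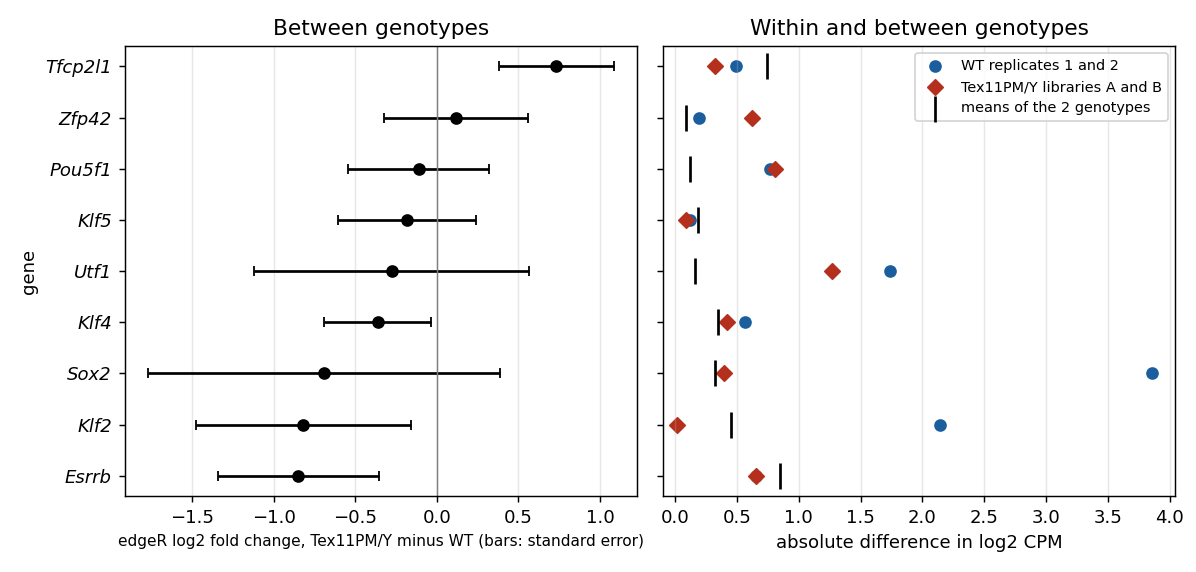
Left, edgeR log2 fold change (x) of each tested factor (y) with its standard error; right, the difference in log2 CPM within WT, within Tex11PM/Y and between the genotype means. Sox2 and Klf2 differ by 3.85 and 2.14 log2 between the WT replicates, more than any factor differs between the genotypes.

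For each tested factor the gene with the most similar course over the 4 libraries was found by the root-mean-square difference of centred log2 CPM, among 14365 genes. It was Arid1b for Pou5f1 (0.025 log2), Cnnm1 for Klf4 (0.0248), Ecsit for Klf5 (0.0122) and Ribc2 for Tfcp2l1 (0.00819). It was Nup153 for Zfp42 (0.0172), Fbxo33 for Esrrb (0.0396), Slc24a2 for Utf1 (0.0678) and Nrros for Klf2 (0.0681). Sox2 had no close match, its nearest being Prl2c2 at 0.214 log2. Such a match over 4 libraries is a description and says nothing of shared control.

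Other genes of the embryonic network included abundant germline factors and genes at the detection limit. Of 24 listed, 15 passed the count filter, 0 were called, and 7 were fitted higher and 8 lower in Tex11PM/Y (median log2 fold change -0.25). The highest were Lin28a, an RNA-binding protein, at 55.5 FPKM, Sall4, a zinc-finger factor of germ and embryonic cells, at 36.9 FPKM, and Tcl1, an AKT coactivator, at 31.1 FPKM. Lin28a held 202 and 216 CPM in WT, 299 in library A and 183 in library B, so the genotypes overlapped. Sall4 held 154, 240, 273 and 208 CPM in the same order and overlapped too. Tcl1 was lower in both Tex11PM/Y libraries, at 27.3 and 38.8 CPM against 60.5 and 67.5 CPM in WT, and did not pass the threshold (edgeR adjusted p = 0.884). In each library 4 to 6 of the 24 had 3 or fewer counts; Fgf4, the growth factor switched on by OCT4 and SOX2 in the embryo, had 4, 0, 1 and 0 counts. Fgf4 was chosen for mention after its values were seen.

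Of 10 genes of the primed state, 7 were tested, with 3 fitted higher, 4 lower and 0 called. Sox3, an X-linked gene of the same SOX group as Sox2, led at 91.0 FPKM, far above Sox2 at 3.21 FPKM. Sox3 held 105, 178, 320 and 292 CPM, higher in both Tex11PM/Y libraries than in WT (log2 fold change 1.11, SE 0.34, edgeR adjusted p = 0.884). The de novo methyltransferase Dnmt3b followed Pou3f1 in this list, at 18.0 FPKM. Among 18 further SOX genes Sox4 (57.1 FPKM) and Sox13 (30.4 FPKM) came after Sox3; 15 were tested, 11 fitted higher, 4 lower and 0 called. Each of these 3 had a higher mean FPKM than Sox2.

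In the POU family Pou5f1 had the highest mean FPKM. Of 14 relatives Pou3f1 (OCT6), which responds to GDNF in SSCs, had 25.6 FPKM, Pou2f1 had 10.2 and Pou2f2 had 7.07. Of these 14, 9 were tested, with 6 fitted higher, 3 lower and 0 called. Pou2f2 was low in WT replicate 1 as Sox2 was, at 8.03 CPM against 48.5, 55.4 and 57.5 CPM in the others. In the KLF family Klf11, at 37.7 FPKM, had a mean near that of Klf4, and Klf10 and Klf13 followed at 24.4 and 19.4 FPKM. Of 14 KLF relatives 13 were tested, with 6 fitted higher, 7 lower and 0 called. Among the relatives of Esrrb, Tfcp2l1 and Zfp42, Ubp1 (25.6 FPKM) and Tfcp2 (13.1 FPKM) exceeded Tfcp2l1, and Yy1 (17.7 FPKM) exceeded Zfp42; of 6 listed, 5 were tested, 3 fitted higher, 2 lower and 0 called.

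The LIF and STAT3 route that feeds Klf4 and Tfcp2l1 in embryonic stem cells was expressed throughout. All 8 listed genes were tested, 2 fitted higher, 6 lower and 0 called. The kinase Pim1 had 145 FPKM, Stat3 had 87.0 and Jak1 had 61.7. Stat3 held 440, 639, 201 and 521 CPM in WT replicates 1 and 2, library A and library B, lowest in library A, where Tfcp2l1 was highest and Klf4 lowest. Of 7 listed repressors of Pou5f1, Sox2 or Nanog, 5 were tested, 3 fitted higher, 2 lower and 0 called. Dmrt1, which holds germ cells back from pluripotency, had 215 FPKM and 541, 598, 617 and 679 CPM. Trp53 had 45.1 FPKM, and Nr6a1 (GCNF), which silences Pou5f1 in differentiating embryonic cells, had 7.66 FPKM. These lists overlap in part, as Sox3 and Pou3f1 stand in more than 1.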

How the data were processed

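The authors deposited raw read counts for 55335 genes, with featureCounts annotation columns per the file headers. They also deposited FPKM and TPM values per gene for 37653 of them. Per the submitters' processing notes the build was mm10 and the tools included STAR, featureCounts, StringTie, fastp and DESeq2. Their roles, versions and strand settings, the annotation release and the handling of reads in shared bases are not given in the sources used here. No label says that the kit keeps strand. Counts and FPKM can disagree: Yy2 held 0 counts in every library but between 0.811 and 2.87 FPKM. Yy2 was chosen for mention after its values were seen. A count of 0 for a copy of a factor therefore does not show that no reads came from it. WT columns carry replicate numbers, and no per-sample column was left unused.

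Genotypes were compared on the counts by the quasi-likelihood F test of edgeR 4.0.16 under R 4.3.3 (TMM scaling after filterByExpr, robust fit, genotype only, Benjamini-Hochberg over 17262 genes, threshold 0.05). A prior count of 2 entered the log2 CPM. No 2 libraries agreed within sampling noise (chi-square per degree of freedom 19.1 to 224). The lowest value was between WT replicate 2 and library B, of different genotypes, with 5.68% of tested genes over 2-fold apart. It was 97.0 between the WT replicates (22.1% of tested genes) and 100.5 between libraries A and B (24.7%). Alternatives included other count filters, scaling by library size or DESeq2 size factors, DESeq2 1.42.0, limma 3.58.1 on log2 FPKM or TPM plus a pseudocount of 1 or 0.1, and leaving out each library. Transcript copies were sought with BLAST 2.17.0 in GENCODE M21.

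The 10 factors and all lists were chosen with earlier results of these data known. All 10 factors are reported whatever their values; of each list of related genes the 3 with the highest mean FPKM are named, with any gene called, and for each tested factor the gene most like it. Cell type markers are given as sums, with the most abundant genes of the main lists and those at or near 0. Upstream windows end at the RefSeq start nearest the start in the count table, 410 bases from it for Sox2 and 0 to 67 for the others.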

Additional observations from a re-analysis of the deposited data

How the results depend on the processing

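None of the 9 tested factors passed the threshold under any alternative run, and with no count filter Nanog did not pass either (log2 fold change 0.05, edgeR adjusted p = 0.991). The count of genes called over all genes was 0 by edgeR, 1 by DESeq2 (Pkd2l1, named after its values were seen) and 50 with no count filter. It ranged from 0 to 518 with a library left out, the highest without library B; these fits leave 1 library in a genotype, assumed to vary like the other. The cause was not tested. The number of factors at the detection limit was 0, and 1 (Nanog) with a limit of fewer than 10 counts, and 1 (Nanog) with FPKM under 0.1. Of the 10 places in the order of levels, 6 were the same with FPKM computed from counts and exon lengths.

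The fitted sign turned under at least 1 alternative for 6 of the 9 factors. On log2(TPM + 1) the log2 fold changes of Pou5f1, Sox2, Klf5 and Utf1 were 0.11, 0.29, 0.020 and 0.028, and that of Sox2 was 0.034 on log2(FPKM + 1) and 0.38 on log2(FPKM + 0.1). With a library left out they ranged from -0.62 to 0.305 for Pou5f1, from -1.62 to 2.33 for Sox2, from -1.55 to 0.61 for Klf2, from -1.09 to 0.86 for Utf1 and from -0.23 to 0.35 for Zfp42. For these the cause was not tested. Klf4, Esrrb and Tfcp2l1 kept their sign in every alternative run, and Klf4 ranged from -0.64 to -0.07 with a library left out. No paired analysis was possible because both Tex11PM/Y columns carry the same replicate number. Depth was lowest for Nanog, at 5 to 9 counts in a library, and next for Sox2 and Utf1, with 23 and 26 counts in WT replicate 1.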
